A study of Homo sapiens with 6 samples.

Results

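Interferon signalling at the cell surface and in the nucleus was followed through 9 genes in LNCaP, an androgen-responsive human prostate cancer cell line, and in its enzalutamide-resistant derivative LNCaP-ENZR. The genes were taken by symbol from the deposited count table: the receptor chains IFNAR1, IFNAR2 and IFNGR1, the kinases JAK1 and TYK2, the signal transducers STAT2 and STAT3, and the transcription factors IRF1 and IRF9. All 9 were found among the 23998 symbols of the table, and all 9 passed the filter on low counts, which left 15422 genes. The LNCaP-WT group comprised 3 libraries of untreated cells and the LNCaP-ENZR group 3 libraries of cells kept for over 12 months in rising enzalutamide, an antiandrogen drug, from 5 to 50 µM, with 10% charcoal-stripped serum, from which steroids are largely removed. The growth protocol of both groups names RPMI medium with 10% fetal bovine serum, and the labels do not say whether the drug or this serum was still there when RNA was taken, so drug, serum and time in culture cannot be told apart. The resistant libraries represent 1 derivation of resistant cells, and whether the 3 libraries of each group stem from separate cultures is not stated.

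Type I interferons bind a receptor of IFNAR1 and IFNAR2, whose tails hold TYK2 and JAK1. These kinases phosphorylate STAT proteins, and STAT2 joins IRF9 in ISGF3, a factor that binds interferon-stimulated response elements (ISREs). Interferon gamma binds IFNGR1 and IFNGR2, which hold JAK1 and JAK2, and STAT dimers then bind gamma-activated sequences (GAS), among them that of IRF1, itself a transcription factor. STAT3 serves mainly the interleukin 6 family through the shared chain gp130. Impaired JAK1 and a poor response to interferon have been described in LNCaP cells.

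Promoter sequences of 4 genes are shown because they carry, or lack, the elements through which these factors act. Each runs from 250 bases before to 50 bases after a RefSeq start on GRCh38.p14. IRF1 and IRF9 are shown as genes with a GAS match, and STAT2 as a member that fell without either match. IFIT3 is shown in 1 of its 2 listed windows, as an ISGF3 target with 2 ISRE matches there. Capitals mark matches to GAS, spelled TTCNNNGAA, or to ISRE, spelled as GAAA, any 2 bases and GAAA, on either strand. The motifs were searched without regard to overlap between them.
IRF1, chr5:132490724-132491023, minus strand: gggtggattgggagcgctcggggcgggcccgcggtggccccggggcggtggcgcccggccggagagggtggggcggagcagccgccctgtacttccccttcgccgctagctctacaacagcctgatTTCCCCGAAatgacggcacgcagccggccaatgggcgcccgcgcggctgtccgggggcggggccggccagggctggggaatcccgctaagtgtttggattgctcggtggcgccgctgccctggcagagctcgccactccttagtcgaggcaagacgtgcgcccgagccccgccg
IRF9, chr14:24161015-24161314, plus strand: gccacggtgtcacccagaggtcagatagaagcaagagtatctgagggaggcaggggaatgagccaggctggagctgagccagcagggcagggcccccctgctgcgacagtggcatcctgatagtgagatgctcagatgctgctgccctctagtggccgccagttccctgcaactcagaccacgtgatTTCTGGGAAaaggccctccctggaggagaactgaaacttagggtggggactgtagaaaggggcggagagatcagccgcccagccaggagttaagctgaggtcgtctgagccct
STAT2, chr12:56360058-56360357, minus strand: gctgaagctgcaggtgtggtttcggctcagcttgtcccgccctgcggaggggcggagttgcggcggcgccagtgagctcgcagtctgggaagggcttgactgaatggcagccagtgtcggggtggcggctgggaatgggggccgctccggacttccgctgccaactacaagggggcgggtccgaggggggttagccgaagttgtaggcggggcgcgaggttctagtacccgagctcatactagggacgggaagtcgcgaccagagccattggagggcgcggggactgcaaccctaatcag
IFIT3, chr10:89327747-89328046, plus strand: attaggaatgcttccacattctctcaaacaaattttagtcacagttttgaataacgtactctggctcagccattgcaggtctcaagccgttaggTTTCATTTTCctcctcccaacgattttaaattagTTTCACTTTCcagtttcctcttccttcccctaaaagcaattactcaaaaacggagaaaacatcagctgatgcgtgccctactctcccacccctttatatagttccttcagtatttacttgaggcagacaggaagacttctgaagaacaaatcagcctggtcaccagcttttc
The GAS match began 124 bases before the IRF1 start and 63 bases before the IRF9 start. In the IFIT3 window shown, the 2 ISRE matches began 156 and 122 bases before the start. The second IFIT3 window, not shown, also held 2 ISRE matches, 94 and 51 bases before its own start. Promoters were listed for 8 of the 9 genes, all but IFNAR2. Of these, 2 held a GAS match and 0 an ISRE match in any listed window. Over all 35116 listed promoters, 7.66% held a GAS match and 3.57% an ISRE match, and of 27305 genes 9.38% and 4.38% had such a promoter. Of 34 listed ISGF3 target genes, 28 had a promoter entry, and 22 of these had an ISRE match. A match describes letters in the window and not binding.

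The 9 genes moved in different directions. With an adjusted p under 0.05 in edgeR's quasi-likelihood test, 4 fell in LNCaP-ENZR (IRF1, JAK1, STAT2 and IFNGR1), 2 rose (TYK2 and IFNAR2), and IFNAR1, STAT3 and IRF9 did not pass. These cells differed widely in their transcripts, so calls were common, with 69.2% of all tested genes called, 34.8% as lower and 34.4% as higher. With at least a 2-fold change, 11.9% of tested genes were called lower and 9.74% higher, and IRF1 was the only member among them. Libraries did not overlap between groups for 6 of the 9 genes, against 72.2% of tested genes, and LNCaP-ENZR was the lower group without overlap for 4 of the 9, against 36.4% of tested genes. The median log2 fold change was -0.21 over the 9 genes and -0.01 over all tested genes. In bulk RNA, fewer cells with a transcript and less transcript per cell cannot be told apart.

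**Figure D1:**
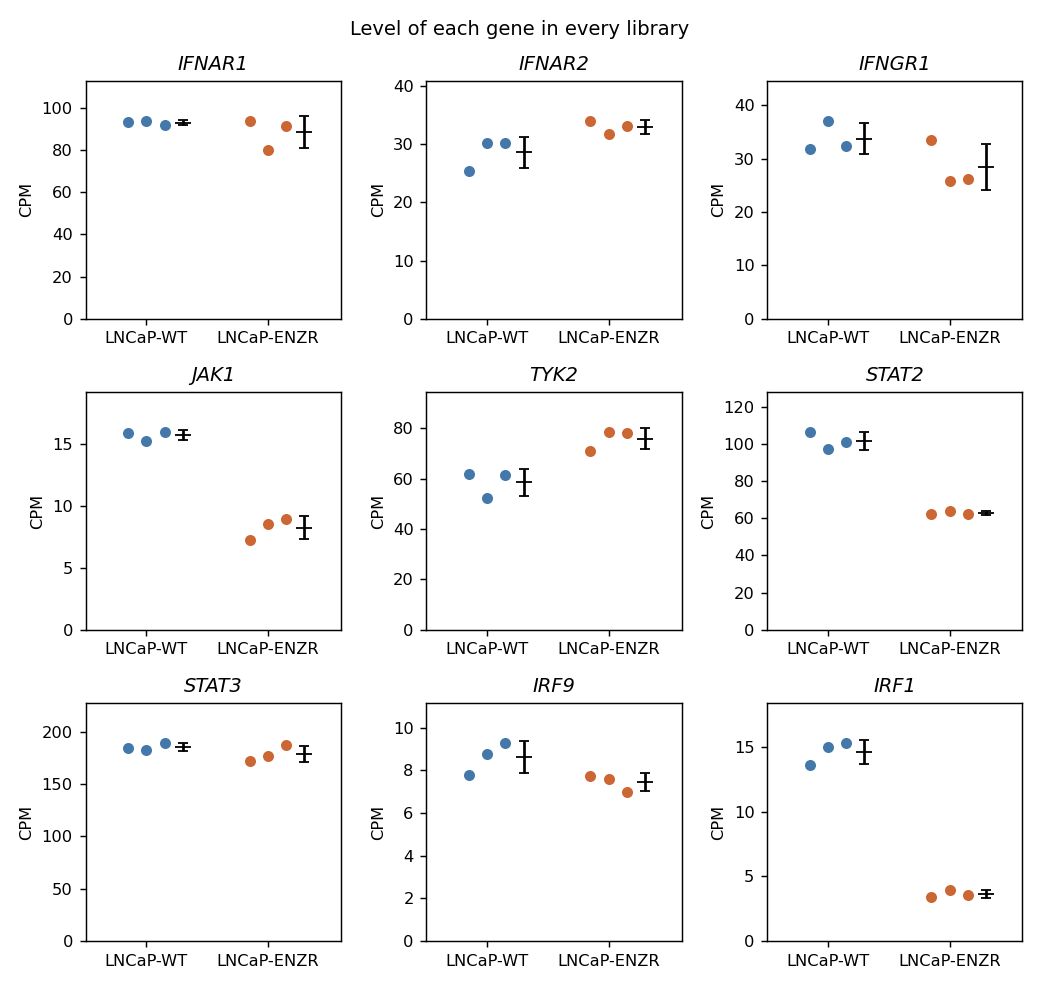
Level of each of the 9 genes in CPM (counts scaled to library size, linear axes from 0) in 3 LNCaP-WT and 3 LNCaP-ENZR libraries; points are libraries and the bar beside them is the mean ± SD. The groups stand clear of each other for IRF1, JAK1 and STAT2, which were lower in LNCaP-ENZR, and for TYK2, which was higher, while IFNAR1, IFNGR1 and STAT3 overlapped.

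Library totals ran from 34505712 to 36610862 counts. Levels within a gene are given as CPM over library sizes scaled by the trimmed mean of M values (TMM), with mean ± SD over 3 libraries, and each log2 fold change sets LNCaP-ENZR over LNCaP-WT. All 8 luminal prostate and LNCaP markers checked passed the filter and were expressed in both groups, with sums of 5509 to 5665 CPM in LNCaP-WT and 2848 to 2972 CPM in LNCaP-ENZR. Of 10 leukocyte markers, 9 were in the table and together summed to 0.744 to 1.32 CPM in LNCaP-WT and 0.792 to 0.945 CPM in LNCaP-ENZR, with CD3E at 0 counts in LNCaP-WT and NKG7 at 0 in LNCaP-ENZR. The 10 stromal and endothelial markers summed to 111 to 127 and 103 to 138 CPM, most of it COL1A1, and the 8 genes typical of PC-3 and DU145 cells to 184 to 202 and 158 to 176 CPM, mostly EGFR.

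Both chains of the type I interferon receptor were well expressed in both groups and moved little. IFNAR1, the chain that holds TYK2, lies on chromosome 21 (GRCh38, 33324395 to 33359864, plus strand). It stood at 93.6, 94.1 and 91.9 CPM in the LNCaP-WT libraries and at 94.1, 80.0 and 91.6 CPM in the LNCaP-ENZR libraries. The groups overlapped, with LNCaP-ENZR 2 lowest. Its log2 fold change was -0.07 ± 0.064 (SE; 95% interval -0.21 to 0.06; edgeR adjusted p = 0.32). With library totals as the only scaling the test passed (log2 fold change -0.16, edgeR adjusted p = 0.036), and without LNCaP-ENZR 2 the value was 0.0040.

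IFNAR2, the long-tailed chain that holds JAK1 and also binds STAT2 and the inhibitor USP18, starts upstream of IFNAR1 on the same strand (33229938 to 33265664). It measured 25.5, 30.3 and 30.2 CPM in LNCaP-WT and 34.1, 31.7 and 33.1 CPM in LNCaP-ENZR. Every LNCaP-ENZR library was above every LNCaP-WT library, and LNCaP-WT 1 was the lowest. The rise was small, at a log2 fold change of 0.20 ± 0.081 (SE; 1.15-fold; edgeR adjusted p = 0.033). It did not pass in 6 of 18 alternatives, among them without LNCaP-WT 1 (0.13, edgeR adjusted p = 0.21), without LNCaP-ENZR 1 (0.19, adjusted p = 0.060) and with library totals (0.12, adjusted p = 0.21). In GENCODE release 29, 44.2% of the exonic bases of IFNAR2 are shared with a readthrough gene on the same strand and 39.1% with the antisense gene IL10RB-DT. The strand setting of the counting is not stated, so reads of these genes cannot be separated from those of IFNAR2.

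The remaining chains of the same cluster were lower in the resistant cells. IL10RB, which pairs with the receptors of interferon lambda and interleukin 10, lies between IFNAR2 and IFNAR1. It was at 14.2, 17.4 and 14.6 CPM in LNCaP-WT and 9.76, 9.42 and 9.05 CPM in LNCaP-ENZR, and the groups did not overlap (log2 fold change -0.71 ± 0.11 SE, edgeR adjusted p = 7.5e-06). IFNGR2, the chain of the interferon gamma receptor that holds JAK2, follows IFNAR1. Its libraries stood at 71.6, 76.4 and 70.6 CPM in LNCaP-WT and at 49.5, 54.1 and 49.6 CPM in LNCaP-ENZR (log2 fold change -0.51 ± 0.065 SE, edgeR adjusted p = 9.1e-07). Thus of 4 receptor genes in a row, the outermost IFNAR2 rose, IL10RB and IFNGR2 fell and IFNAR1 did not pass. Among 21 tested genes that start within 1 Mb of IFNAR1, 8 rose, 11 fell and 2 did not pass (median log2 fold change -0.18). The largest change there was that of TMEM50B, which codes for a membrane protein and overlaps the end of IFNGR2 in RefSeq, at -1.83. Exon overlap was examined for the 9 genes only, so reads shared by TMEM50B and IFNGR2 were not assessed. The 21 genes formed no block of one direction. Calls both ways were common over all tested genes, with 34.4% rising and 34.8% falling.

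**Figure D2:**
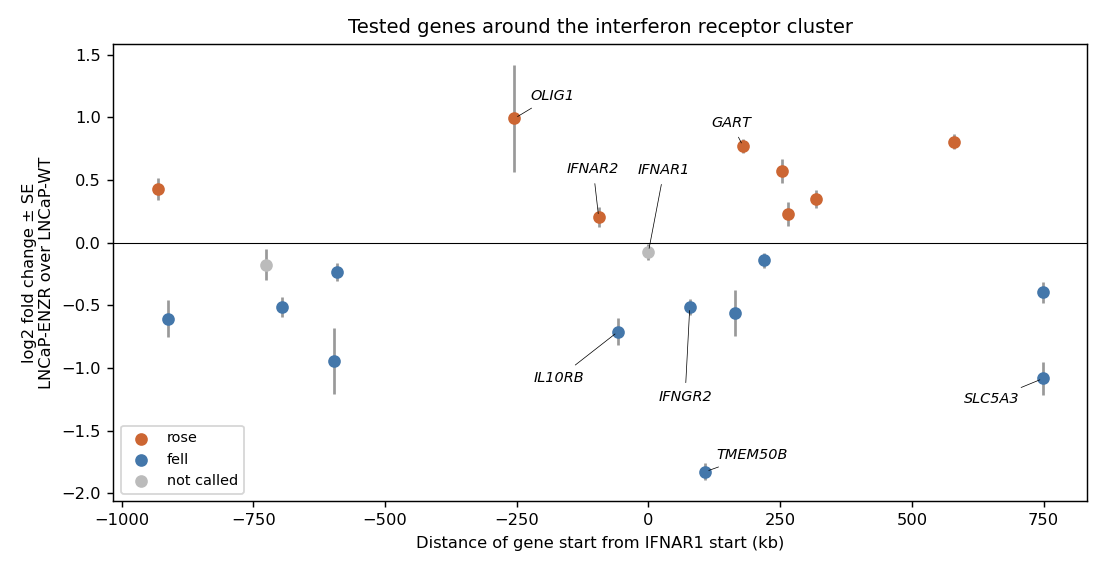
Log2 fold change with its SE (LNCaP-ENZR over LNCaP-WT) of the 21 tested genes whose start lies within 1 Mb of that of IFNAR1, against distance in kb. IFNAR2 lies above 0, IFNAR1 next to 0 and IL10RB and IFNGR2 below it, with GART higher and TMEM50B lower nearby.

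IFNGR1, the ligand-binding chain for interferon gamma, lies on chromosome 6 (137197484 to 137219385, minus strand). It was at 31.9, 37.2 and 32.3 CPM in LNCaP-WT and at 33.5, 25.8 and 26.2 CPM in LNCaP-ENZR. The groups overlapped, since LNCaP-ENZR 1 was above LNCaP-WT 1 and LNCaP-WT 3. The fall was small, at a log2 fold change of -0.25 ± 0.098 (SE; 1.19-fold; edgeR adjusted p = 0.034). It did not pass in 4 of 18 alternatives, among them the edgeR fits that left out LNCaP-WT 2 (-0.17, adjusted p = 0.14), LNCaP-ENZR 2 (-0.17, adjusted p = 0.15) or LNCaP-ENZR 3 (-0.17, adjusted p = 0.14).

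The kinases diverged. JAK1, which serves both interferon receptors and gp130, lies on chromosome 1 (64833229 to 65067746, minus strand). It stood at 15.9, 15.2 and 16.0 CPM in LNCaP-WT and at 7.21, 8.54 and 8.97 CPM in LNCaP-ENZR. The groups were far apart, and the log2 fold change was -0.93 ± 0.11 (SE; 1.90-fold lower; edgeR adjusted p = 2.5e-07), a size larger than that of 74.9% of tested genes. The call held in 18 of 18 alternatives, with values from -1.01 to -0.68.

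TYK2, the partner of IFNAR1, lies on chromosome 19 (10350533 to 10380572, minus strand) and went the other way. It measured 61.8, 52.1 and 61.4 CPM in LNCaP-WT and 71.0, 78.5 and 77.9 CPM in LNCaP-ENZR. LNCaP-WT 2 was the lowest library and the groups did not overlap. The log2 fold change was 0.38 ± 0.072 (SE; 1.30-fold; edgeR adjusted p = 1.4e-04), and all 18 alternatives gave a rise that passed, from 0.27 to 0.43.

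JAK2, the kinase of IFNGR2, is described beside them as a gene outside the 9. It went from 56.5, 55.7 and 50.9 CPM to 8.33, 5.40 and 7.05 CPM, a log2 fold change of -2.97 ± 0.12 (SE, edgeR adjusted p = 4.5e-13). JAK3, a kinase of lymphocyte cytokine receptors, was scarce, at 1.70 ± 0.351 and 0.712 ± 0.125 CPM (log2 fold change -1.25, edgeR adjusted p = 0.0014).

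Levels of different genes can be compared per kilobase with the deposited FPKM (fragments scaled by gene length and by the counted total of the library). On that scale TYK2 made up 53.6%, 49.9% and 55.4% of the summed FPKM of the 4 JAK genes in LNCaP-WT and 84.9%, 86.7% and 85.4% in LNCaP-ENZR. This share was chosen after the values were seen. JAK2 made up 32.9 ± 2.48% and 5.26 ± 1.34% (SD, n = 3), and JAK1 13.0 ± 0.379% and 8.47 ± 0.559%. TYK2 was thus the most abundant JAK transcript in all libraries, and in the resistant cells most of the sum was TYK2. Leaving out any library moved the difference of 32.7 percentage points in TYK2 to between 31.2 and 33.9 points.

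**Figure D3:**
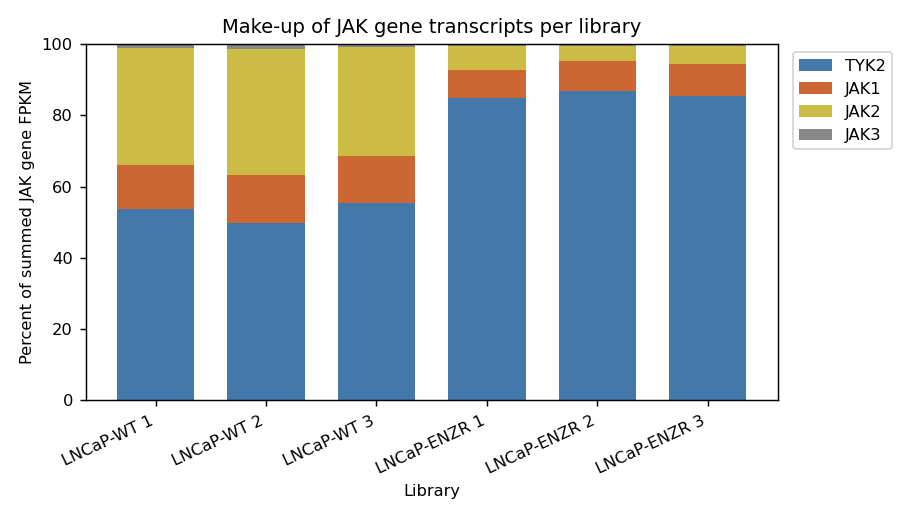
Share of each JAK gene in the summed FPKM of TYK2, JAK1, JAK2 and JAK3 (percent, stacked bars from 0) in each library. TYK2 makes up 49.9% to 55.4% in the LNCaP-WT libraries and 84.9% to 86.7% in the LNCaP-ENZR libraries, where the JAK2 and JAK1 parts are smaller.

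STAT2 and STAT3 parted as well. STAT2, the transducer specific to type I and type III interferons, lies on chromosome 12 (56341597 to 56360107, minus strand). It measured 107, 97.2 and 101 CPM in LNCaP-WT and 62.1, 63.9 and 62.5 CPM in LNCaP-ENZR. Spread was small and the groups far apart, with a log2 fold change of -0.69 ± 0.059 (SE; 1.62-fold lower; edgeR adjusted p = 3.9e-09). The call held in 18 of 18 alternatives, from -0.78 to -0.63.

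STAT3, on chromosome 17 (42313324 to 42388442, minus strand), had the highest FPKM of the 9 in both groups, a scale described further on. Its libraries stood at 185, 182 and 189 CPM in LNCaP-WT and at 172, 177 and 187 CPM in LNCaP-ENZR. LNCaP-ENZR 3 lay among the LNCaP-WT libraries, and the log2 fold change was -0.05 ± 0.053 (SE; 95% interval -0.17 to 0.06; edgeR adjusted p = 0.37). With library totals as the only scaling it was -0.14 and passed (edgeR adjusted p = 0.025), as did 3 fits on FPKM (limma-trend adjusted p from 0.029 to 0.048), which carry the same scaling.

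STAT5B, which transmits growth hormone and prolactin signals, went from 60.9 ± 3.02 to 75.3 ± 4.64 CPM (log2 fold change 0.31 ± 0.066 SE, edgeR adjusted p = 3.9e-04). STAT6 stood at 0.599 ± 0.155 and 0.892 ± 0.353 CPM (edgeR adjusted p = 0.21).

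IRF1 showed the largest change of the 9 genes. It lies on chromosome 5 (132481609 to 132490773, minus strand), and its product switches on antigen presentation and antiviral genes. It was at 13.6, 15.1 and 15.4 CPM in LNCaP-WT and at 3.38, 3.96 and 3.58 CPM in LNCaP-ENZR. No library came near the other group. The log2 fold change was -2.01 ± 0.12 (SE; 4.03-fold lower; edgeR adjusted p = 2.8e-11), larger in size than that of 93.4% of tested genes. All 18 alternatives gave a fall that passed, from -2.10 to -1.39. In GENCODE release 29, 22% of the exonic bases of IRF1 lie opposite a non-coding gene that the count table lists as IRF1-AS1, although the RefSeq spans of both genes do not overlap. IRF1-AS1 went from 4.83 ± 0.534 to 2.14 ± 0.165 CPM (log2 fold change -1.17 ± 0.18 SE, edgeR adjusted p = 1.2e-05).

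IRF9, the DNA-binding part of ISGF3, lies on chromosome 14 (24161265 to 24166565, plus strand). It stood at 7.80, 8.79 and 9.29 CPM in LNCaP-WT and at 7.76, 7.61 and 6.99 CPM in LNCaP-ENZR. The groups did not overlap but nearly touched, LNCaP-WT 1 being just above LNCaP-ENZR 1. The log2 fold change was -0.21 ± 0.12 (SE; 95% interval -0.47 to 0.05; edgeR adjusted p = 0.13). It passed in 5 of 18 alternatives, with library totals (-0.30, edgeR adjusted p = 0.037), length offsets (-0.31, adjusted p = 0.027) and 3 fits on FPKM (limma-trend adjusted p from 0.015 to 0.031). In GENCODE release 29, 48.4% of its exonic bases are shared with another protein-coding gene on the same strand, and how such reads were assigned is not stated.

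The list of other IRF genes, which includes 3 IRF2-binding proteins, held genes of both directions. Of its 8 tested genes, 4 fell, 2 rose and 2 did not pass, where 34.8% of all tested genes fell and 34.4% rose. IRF7, which amplifies type I interferon production and is itself interferon-induced, went from 23.2, 22.8 and 24.4 CPM to 9.96, 10.6 and 8.28 CPM (log2 fold change -1.28 ± 0.10 SE, edgeR adjusted p = 1.2e-09). IRF3, the factor that first switches on interferon genes, had a log2 fold change of -0.55, and IRF2, which can oppose IRF1, of -0.53. The 2 that rose were the IRF2-binding proteins IRF2BPL and IRF2BP2, at 0.45 and 0.36, chosen after their values were seen.

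**Figure D4:**
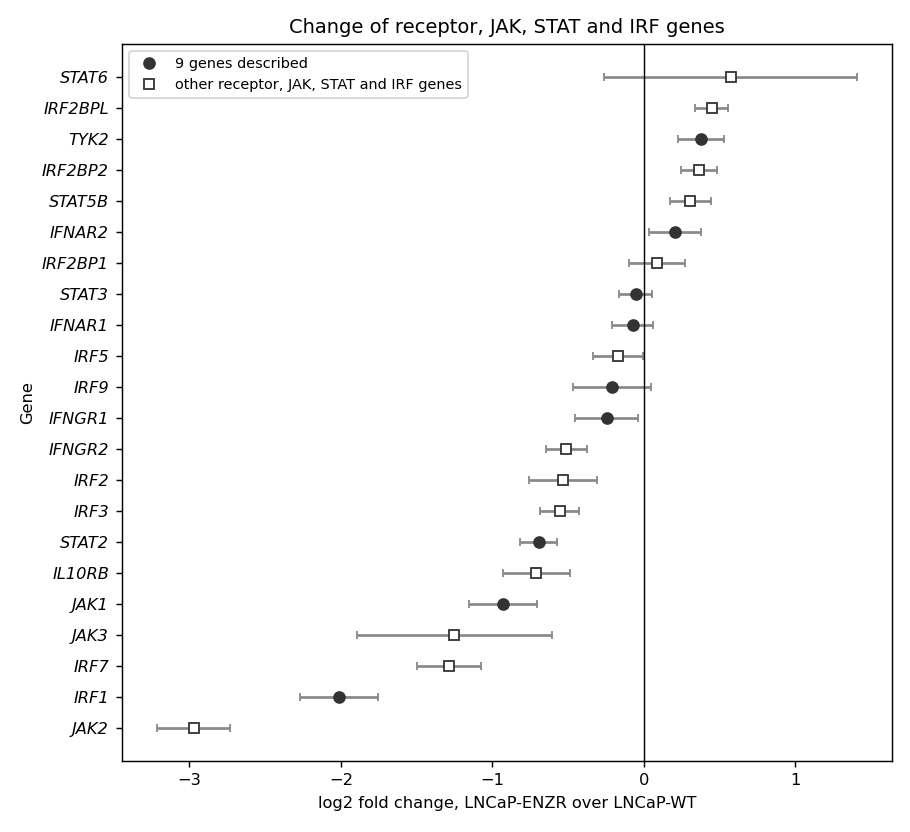
Log2 fold change (LNCaP-ENZR over LNCaP-WT) with its 95% interval for the 9 genes (filled circles) and 13 other receptor, JAK, STAT and IRF genes (open squares). JAK2 and IRF1 lie furthest below 0, at -2.97 and -2.01, and TYK2 and IFNAR2 are the members above it.

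Per kilobase, the order of the 9 genes in LNCaP-WT was STAT3, STAT2, IFNAR1, TYK2, IFNGR1, IFNAR2, IRF9, IRF1 and JAK1, from 37.5 ± 0.798 to 2.91 ± 0.0833 FPKM, and no neighbours in this order overlapped. In LNCaP-ENZR it was STAT3, TYK2, IFNAR1, STAT2, IFNGR1, IFNAR2, IRF9, JAK1 and IRF1, from 34.0 ± 1.58 to 0.989 ± 0.0777 FPKM. There TYK2 overlapped IFNAR1, and IFNGR1 overlapped IFNAR2. STAT2 moved from the second to the fourth place and TYK2 from the fourth to the second, and IRF1 took the last place from JAK1. STAT3 was above 90.3% of tested genes in LNCaP-WT and above 89.0% in LNCaP-ENZR by mean FPKM, and IRF1 moved from the 46.3 percentile to the 25 percentile.

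Ratios within a library do not depend on library scaling. The ratio of TYK2 to JAK1 was 4.08 in LNCaP-WT and 10.1 in LNCaP-ENZR on the FPKM scale, a difference of 1.31 in mean log2 ratio with SDs of 0.101 and 0.0901 (n = 3 per group). STAT3 to STAT2 went from 1.85 to 2.88, IRF9 to STAT2 from 0.246 to 0.344 and IFNAR2 to IFNAR1 from 0.451 to 0.550. IRF1 to IRF9 went from 0.849 to 0.243. For all 5 ratios the libraries did not overlap between groups. Of single tested genes, 72.2% did not overlap either, and the share over other pairs of genes was not computed. Each ratio gave p = 0.1 by a two-sided exact permutation test, also after adjustment over the 5. That is the smallest p that 3 against 3 libraries can give.

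The ligands were close to absent from these libraries. Of 13 interferon genes, 5 could be read from the table, and all 5 were at 0 counts in LNCaP-ENZR. In LNCaP-WT, IFNL1 had 3 counts over the 3 libraries and IFNA13, IFNB1, IFNL2 and IFNL3 had 1 each, which is at or below a floor of 3 counts. No difference between the groups was detectable at this depth.

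Among 11 tested genes listed as gp130 and other cytokine receptor chains, of several receptor families, 7 fell, 2 rose and 2 did not pass. Of all tested genes, 34.8% fell and 34.4% rose. The median log2 fold change of the 11 was -0.29. IL6ST, which encodes gp130, went from 189, 168 and 179 CPM to 64.1, 42.1 and 53.7 CPM (log2 fold change -1.74 ± 0.14 SE, edgeR adjusted p = 1.1e-05). IL13RA1, a chain of the interleukin 13 receptor, had a log2 fold change of -1.32, IL11RA of -0.91 and IL27RA of 0.63. STAT3, the main transducer of gp130, did not pass in either direction as given above. Of 12 genes often cited as STAT3 targets, 7 fell, 3 rose and 2 did not pass (median -0.21), against the same shares over all tested genes. The AP-1 gene FOSL2 had a log2 fold change of -2.62 and the angiogenic factor VEGFA of -0.88, while the transcription factor CEBPD had 1.18 and the kinase PIM1 0.81.

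Genes listed as inhibitors of the pathway went both ways, as did all tested genes. All 18 were tested, and 7 fell, 5 rose and 6 did not pass (median log2 fold change -0.12). Over all tested genes, 34.8% fell and 34.4% rose. The SUMO ligase PIAS4 had a log2 fold change of 0.74, the receptor inhibitors SOCS2 and SOCS6 of -0.71 and -0.66, and PIAS2 of -0.64. The following 2 were chosen after their values were seen. SOCS3, which blocks gp130 signalling, went from 2.86 ± 0.953 to 0.683 ± 0.256 CPM (log2 fold change -2.06 ± 0.32 SE, edgeR adjusted p = 1.2e-05). USP18, which binds IFNAR2 and displaces JAK1, rose from 12.8, 12.3 and 13.0 CPM to 18.5, 20.6 and 18.3 CPM (log2 fold change 0.59 ± 0.092 SE, edgeR adjusted p = 1.1e-05), although a close relative can share its reads.

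Genes listed as sensors that lead to interferon went both ways, as did all tested genes. Of 10 tested, 3 fell, 4 rose and 3 did not pass (median 0.05). Among all tested genes, 34.8% fell and 34.4% rose. The RNA sensor RIGI, listed in the table under its older symbol DDX58, had a log2 fold change of -1.49, the adaptor TRAF3 of 0.64, the kinase IKBKE of 0.44 and the adaptor TICAM1 of 0.31. The IKBKE call was lost without LNCaP-WT 1 (edgeR adjusted p = 0.062) and in an FPKM fit without a filter (limma-trend adjusted p = 0.087). The other called genes of this list were TLR3, IFIH1 and STING1, chosen after their values were seen. TLR3 and IFIH1 had larger falls than RIGI, at -2.95 and -2.73, and STING1 rose by 1.23. TLR3 and IFIH1 had only 37 and 47 counts left over the LNCaP-ENZR libraries.

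Most listed genes downstream of ISGF3 and IRF1 fell. Of 28 tested ISGF3 targets, 23 fell, 3 rose and 2 did not pass. Their median log2 fold change was -1.47, against 34.8% of all tested genes lower and a median of -0.01. IFIT2, which binds viral RNA, went from 35.9, 35.4 and 31.5 CPM to 3.15, 3.48 and 3.35 CPM. RSAD2, IFIT3 and OASL had log2 fold changes of -5.47, -5.29 and -5.02. These folds rest on few counts, with 16, 24 and 75 left over the LNCaP-ENZR libraries. IFIT3 is the gene with a promoter window printed above. The 3 that rose were IFITM1, IFITM2 and HERC6, at 1.09, 2.03 and 3.88, named after their values were seen. IFITM2 and HERC6 had only 52 and 32 counts over the LNCaP-WT libraries, and the IFITM genes are similar enough to share reads. Of 13 tested genes induced by interferon gamma or IRF1, 10 fell, 1 rose and 2 did not pass (median -0.77). APOL6, of the apolipoprotein L family, had a log2 fold change of -6.06 with 21 counts left over the LNCaP-ENZR libraries, the peptide transporter TAP1 of -0.77, the proteasome subunit PSMB10 of -0.70 and the adhesion molecule ICAM1 of -0.67. Lists and members were chosen with results of these data known, so these counts describe the lists and test nothing about them.

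**Figure D5:**
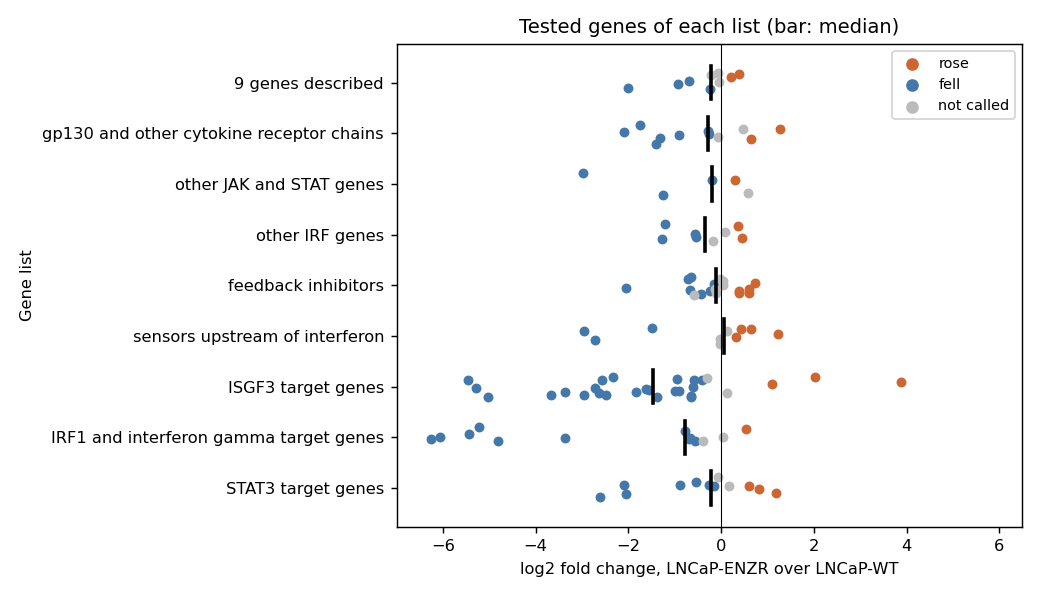
Log2 fold change (LNCaP-ENZR over LNCaP-WT) of the tested genes among the 9 and in 8 pathway lists; colour gives the edgeR call and the black bar the list's median. The 9 genes have a median of -0.21 and the ISGF3 targets of -1.47.

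The genes most like the members across the 6 libraries were sought among 11877 other genes that averaged 100 counts or more, by Pearson's r of log2 CPM, as a description in which the group difference dominates. For IRF1 they were TMEM248, RAP1GAP and CTSB, with r from 0.9997 to 0.9998, and 739 genes had an r over 0.99. For TYK2 they were ATP13A1, CHDH and PC, with r from 0.9942 to 0.9974, and 6 genes had an r over 0.99. A pattern like that of IRF1 was thus met in 739 of 11877 genes at this threshold and names no particular group of genes.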

How the data were processed

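Per the labels, polyA RNA was sequenced in pairs of 150 bp reads. Tools named are fastp, HISAT2 and HTSeq, with the build GRCh38, per the submitters' processing notes. Versions, annotation, counting mode and strand setting were not given in the sources used. Raw counts by gene symbol are the authors' deposited values. FPKM, scaled by length and library total, are also the authors' deposited values, and for 23998 of 23998 genes counts and FPKM gave 1 length in all libraries within 0.001%.

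Counts were tested with edgeR 4.0.16 (R 4.3.3) by the robust two-sided quasi-likelihood F test, with TMM scaling, the default filter on low expression and Benjamini-Hochberg adjustment over all tested genes. SEs come from the F statistic. The biological coefficient of variation was 7.41%. P-values reflect only how these libraries vary, and that variation may be technical. Replicates were no duplicates, since their counts differed beyond sampling noise (chi-square over degrees of freedom from 3.83 to 12.7). The members and lists were chosen with earlier results of these data known.

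Outside the 9 genes and those beside IFNAR1, up to 4 called genes that averaged 100 counts or more, with the largest change, are named per list, and all tested genes of lists of up to 7 symbols. Others are named as chosen after their values were seen, and some genes under this rule are not reported here. Sequences and positions come from RefSeq (GRCh38.p14) and strands and exon overlaps from GENCODE release 29.

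Alternatives were DESeq2 size factors and Wald test (DESeq2 1.42.0), library totals, upper-quartile factors, no filter, a filter of 1 CPM in 3 libraries plus 50 counts on average, limma-voom (limma 3.58.1), limma-trend after adding 0.1 or 1 to FPKM before log2, gene length offsets, the replicate number as a block, and leaving out every library in turn. Simulated data over 15422 genes held 50 changed genes per size. There edgeR recovered 54%, 80%, 94% and 98% of 1.25-fold, 1.5-fold, 2-fold and 4-fold changes with 8 false calls. In the libraries themselves 69.2% of tested genes were called, and recovery with so large a share of changed genes was not tested.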

Additional observations from a re-analysis of the deposited data

How the results depend on the processing

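The calls for IRF1, JAK1, STAT2 and TYK2 held in direction and significance in all 18 alternatives run, and those of IFNAR2 and IFNGR1 in 12 and 14. The count of members that rose, 2 in the test reported, was 1 with library totals and 1 in each of the 3 limma-trend fits, and ran from 1 to 2 with a library left out. The count that fell, 4 in the test reported, was 7 with library totals and ran from 3 to 4 with a library left out. It was also above 4 with length offsets and in the 3 limma-trend fits. In all of these IRF9 passed as lower, and in the limma-trend fits STAT3 did so too. With a library left out, the cytokine receptor chains that rose ran from 1 (without LNCaP-WT 1) to 3 (without LNCaP-WT 3) and the stromal markers that fell from 1 to 2. The sign of IFNAR1 turned with length offsets (0.015) and without LNCaP-ENZR 2 (0.0040, in a range from -0.11 to 0.0040 with a library left out), and that of STAT3 with length offsets (0.0033), none of them called. The cause of these shifts was not tested. For 35 genes of the lists, 626 of 628 values kept direction and call, and 2 of IKBKE lost the call. Most of these genes were picked as called genes with large changes, which favoured such stability. It does not describe the lists as a whole, and genes named after their values were seen did not enter. Over all genes, 9498 to 11329 were called. The median of all tested genes was -0.10 with library totals. Same-numbered libraries correlated at 0.013 to 0.065 in their deviations, and differently numbered ones at -0.092 to 0.064. With 3 libraries per group, these values cannot settle whether the numbers pair libraries. With a replicate block 10714 genes were called, 2 members rose and 4 fell. Not every library correlated best with its own number. For IFNAR1, STAT3 and IRF9 the 95% intervals include 0, which does not show that these genes did not differ.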
